A study of Mus musculus with 20 samples.

Results

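The cytosolic ribosomal protein genes were followed in an RNA immunoprecipitation experiment on activated mouse CD8 T cells. The members were all rows of a table of 3′ UTR read counts whose gene symbol begins with Rpl or Rps and a digit, plus the stalk genes Rplp0, Rplp1 and Rplp2 and the gene Rpsa. The S6 kinase genes (Rps6k), Rps19bp1 and pseudogenes were left out. RefSeq lists 88 protein-coding genes under this rule, and 81 of them had a row among the 20586 rows of the table, 52 of the large subunit and 29 of the small subunit. No row was assigned to Rpl32l, Rpl37rt, Rps12, Rps20, Rps23rg1, Rps27 or Rps28, which were not analysed here.

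CPEB4 binds mRNAs through cytoplasmic polyadenylation elements in their 3′ UTRs, and the study looked for its targets by precipitating it from wild-type (WT) cells and from cells of Cpeb4 knockout (KO) mice. All groups were CD8 T cells of C57BL/6 mice, isolated with beads from spleen and lymph nodes and activated for 48 h with 1 μg/ml each of antibodies to CD3 and CD28 and with 20 ng/ml IL-2. The 4 groups were KO IP, WT IP, KO input and WT input, where IP is RNA recovered with a laboratory-made antibody against CPEB4 and input is the RNA before precipitation. Only input RNA was enriched for poly(A) tails, and libraries had 7 PCR cycles for IP and 12 for input, so IP and input differ in preparation as well as in precipitation. Neither the age of the mice, the part of Cpeb4 that was removed nor whether libraries came from separate animals is stated, so the spread behind the p-values is that of these samples and may be technical.

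Ribosomal proteins are built, together with ribosomal RNA, into the large subunit, which forms peptide bonds, and the small subunit, which decodes the mRNA. Their mRNAs begin with a C followed by an unbroken run of pyrimidines, the 5′ terminal oligopyrimidine (TOP) motif, through which mTORC1 and the protein LARP1 set their translation together. T cells that are activated grow before they divide and make many new ribosomes, so these mRNAs are among the abundant ones of an activated lymphocyte.

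The values come from the 9 sequencing runs whose counts match the row names, of the 20 runs in the table. They belong by name to 6 libraries. KO IP D1 and WT IP D1 each had a batch 2 and a batch 3 run. KO input D1, KO input RIP8 and WT input D1 each had a batch 2 run, and WT input RIP8 had a batch 1 and a batch 2 run. Values of a group are given below in that order of runs. Each run held between 364113 and 4182830 counts, of which a single row, that of Lars2, which charges mitochondrial tRNA with leucine, took 1.16 to 50.1%. That row was left out of all totals, and CPM stands for counts per 1000000 counts without it. Runs with one name differed widely while some runs of different groups differed less. Over rows with at least 20 counts in a pair, the chi-square per degree of freedom was 1.09 between the run labelled as WT IP D1 in batch 2 and KO input D1, 1.12 between KO input D1 and WT input D1, and 3.09 between KO IP D1 batch 3 and WT input RIP8 batch 2. It was 35.0 between both KO IP runs, 58.7 between both WT IP runs and 31.7 between both WT input RIP8 runs. For a given difference the value rises with the counts. The pairs at 1.09 and 1.12 hold only runs with few counts, so pairs of unlike depth do not compare directly. Over the members with enough counts the chi-square per degree of freedom was 1.12 for WT IP D1 batch 2 and KO input D1 (25 members). It was 4.26 for KO IP D1 batch 3 and WT input RIP8 batch 2 (78 members), where sampling noise alone gives about 1. The names therefore give the label of a run and not a checked genotype or precipitation, and results are shown by run. Of the 7 CD8 T cell markers listed, 6 had a row (not Trac), and their sum was 2077 CPM or more in every run. B cell markers summed to 37.8 to 105 CPM and myeloid markers to 15.8 to 49.4 CPM, with Pax5, Lyz2, Adgre1, Cd14 and Fcgr1 at 0 or without a row. NK cell markers summed to 0 to 14.1 CPM, CD4 T cell markers to 65.3 to 177 CPM and stromal markers to 24.5 to 75.6 CPM.

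Because the TOP motif lies at the transcription start, the 30 bases from 15 before to 15 after annotated starts are shown for members with a clear motif and for members on which the results turn. The sequences are from RefSeq, build GRCm38.p6, written 5′ to 3′ on the strand of the gene. Capitals mark the 4 pyrimidine motifs searched. They were CTTCC, its relative with a single C at the end CTTTC, the same with another T added CTTTTC and the longest of them CTTTTTC. They were chosen after these windows had been seen, and CTTCC can share a base with the others.
Rplp2, chr7:141447636-141447665, plus strand: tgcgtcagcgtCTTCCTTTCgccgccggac
Rps10, chr17:27635230-27635259, minus strand: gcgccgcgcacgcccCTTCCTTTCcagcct
Rpl15, chr14:18270972-18271001, minus strand: gtgggagaaagccttCTTCCTTTCctctgg
Rps6, chr4:86857353-86857382, minus strand: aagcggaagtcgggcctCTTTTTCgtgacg
Rps15a, chr7:118116133-118116162, minus strand: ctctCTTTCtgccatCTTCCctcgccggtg
Rpl18, chr7:45718056-45718085, plus strand: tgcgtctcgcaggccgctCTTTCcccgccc
Rpl4, chr9:64173372-64173401, plus strand: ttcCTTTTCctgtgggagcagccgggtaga
Rpl10a, chr17:28328456-28328485, plus strand: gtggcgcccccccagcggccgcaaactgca
Rpsa, chr9:120127751-120127780, plus strand: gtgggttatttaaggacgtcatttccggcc
The stalk gene Rplp2, the small subunit genes Rps10, Rps6 and Rps15a and the large subunit genes Rpl15 and Rpl18 carried such a motif at or beside the annotated start. That of Rpl4 lay further upstream. The window shown for Rpl10a, its other window and the one for Rpsa held none. Of 74 windows of 62 members, 28 (37.8%) held a motif on the sense strand, against 11.4% of all 32851 windows of the same length. On the opposite strand the shares were 16.2% of the windows of members and 11.5% of all windows. No window was held for 19 members. A match is a description of letters, and a window without a match says only that these letters are not in it.

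Ribosomal protein UTRs took a share of the counts that differed widely between runs and split the runs across the group labels. The share was 4.94 and 2.94% in the KO IP runs, 0.480 and 8.95 in the WT IP runs, 0.434 and 0.352 in the KO input runs and 0.456, 0.366 and 3.16 in the WT input runs. Each 95% Wilson interval was narrow, for instance 0.451 to 0.511% in WT IP D1 batch 2 and 8.92 to 8.97% in WT IP D1 batch 3. These intervals cover counting error only, since no molecular identifiers that would mark PCR copies are described. The highest and one of the low shares thus belonged to the same named library. The 4 runs with 2.94% or more were those with 5.40% or less of their counts in the Lars2 row. The 5 runs with 0.480% or less had 34.8% or more in that row. The first set had 2605101 to 4182830 counts in all and the second 364113 to 486758. Summed CD8 T cell markers followed the same division, with 3396 to 5161 CPM in the first set and 2077 to 2554 CPM in the second. Erythroid markers, with Hbb-bs at 0 in every run, ran the other way at a low level, with 0 to 0.979 CPM in the first set and 3.15 to 17.5 CPM in the second. Summed B cell, myeloid, NK cell, CD4 T cell and stromal markers overlapped between the sets. The part of these markers, of the Lars2 row and of depth in the level of the ribosomal protein UTRs was not tested. In a mixture of RNA, fewer cells of a type and less RNA per cell cannot be told apart.

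**Figure D1:**
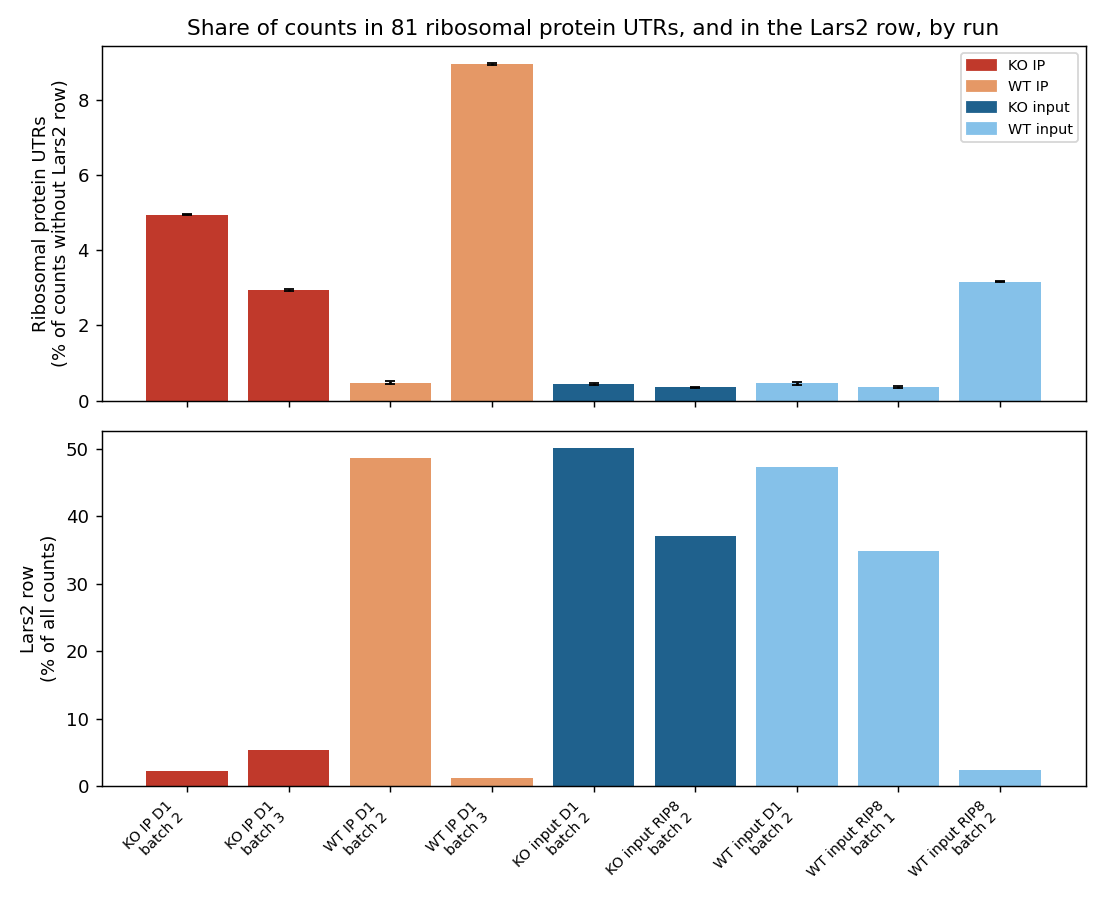
Upper bars give the percent of counts (without the Lars2 row) in the 81 ribosomal protein UTRs in each run, with 95% Wilson intervals, and lower bars the percent of all counts in the Lars2 row, coloured by group label. The 4 runs with a ribosomal protein share of 2.94 to 8.95% have 1.16 to 5.40% in the Lars2 row, and the other 5 runs have 0.352 to 0.480% and 34.8 to 50.1%.

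The split held for nearly every member with at least 100 counts over the 9 runs. Of these 78 members, 74 were higher in all 4 runs with under 10% Lars2 than in any of the other 5 runs, against 22.3% of the 9514 rows with that many counts. In the opposite direction stood 1 member, Rpl10a, beside 21.5% of all rows. The values of Rpl7l1, Rps15a and Rps19 overlapped. The runs were divided here by their Lars2 share and not by a label of the study. The SD of log2(CPM + 1) over the 9 runs had a median of 2.14 among the 78 members and of 0.86 among the 9514 rows. A median member had 1196 and 536 counts in the KO IP runs, 5 and 1974 in the WT IP runs, 5 and 6 in the KO input runs and 5, 8 and 904 in the WT input runs. In the 5 runs rich in Lars2, 26 to 35 of the 81 members had 3 counts or fewer, and 3 counts there correspond to 9.45 to 15.6 CPM, the limit that a count of 0 allows.

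**Figure D2:**
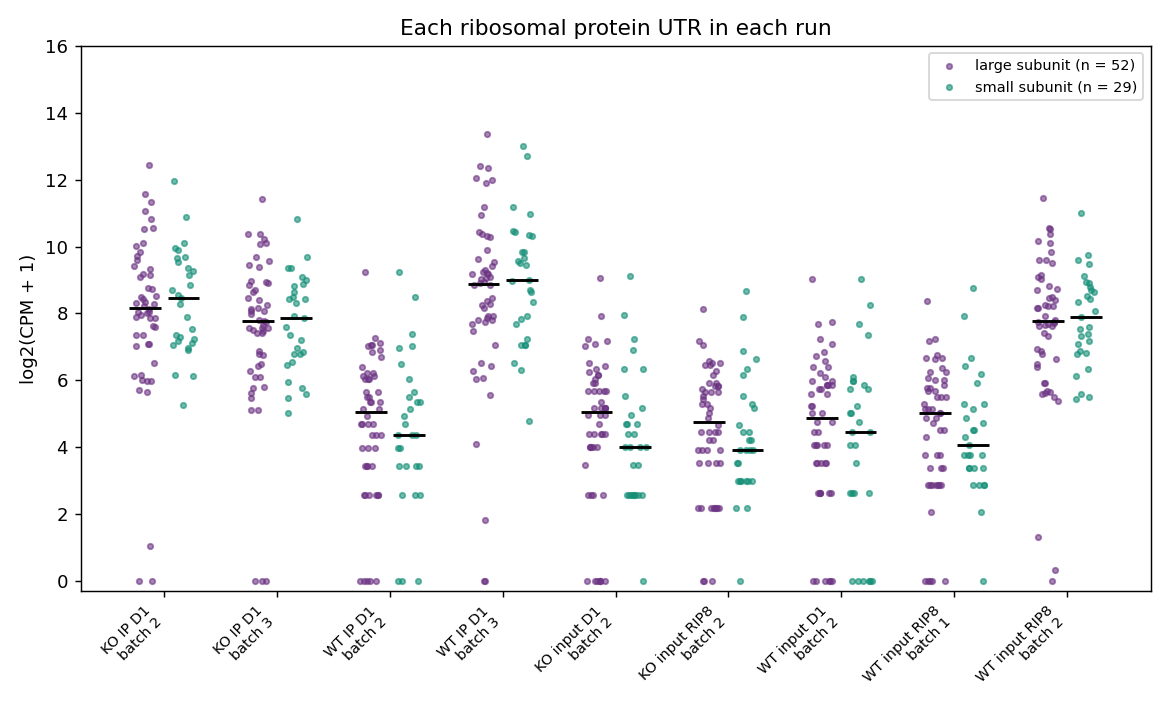
Each point is 1 ribosomal protein UTR in 1 run, as log2(CPM + 1), with large subunit genes left and small subunit genes right and a bar at each median. The medians lie between 7.76 and 9.01 in the 4 runs with under 10% Lars2 and between 3.91 and 5.06 in the other 5.

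Among the stalk proteins of the large subunit, which recruit elongation factors to the ribosome, Rplp1 spread furthest. It had 3052 and 1209 CPM in the KO IP runs, 153 and 10606 in the WT IP runs, 129.9 and 87.6 in the KO input runs and 151, 97.7 and 1338 in the WT input runs. Its level in WT IP D1 batch 3 stood far above all others, while both KO IP runs and WT input RIP8 batch 2 were well above the remaining 5 runs. Rplp2, its partner in the stalk, had 837 and 413 CPM in the KO IP runs, 34.5 and 1964 in the WT IP runs, 49.98 and 28.0 in the KO input runs and 52.0, 44.1 and 417 in the WT input runs. Rplp0, which anchors the stalk to the ribosome, had 1094 and 664 CPM in the KO IP runs, 64.2 and 1286 in the WT IP runs, 49.98 and 38.5 in the KO input runs and 57.3, 53.6 and 724 in the WT input runs. For all 3 genes WT IP D1 batch 3 was the highest run, and the run of the same library in batch 2 lay among the lowest 5.

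Of the core proteins of the large subunit, Rpl3, which lies close to the peptidyl transferase centre, had 312 and 187 CPM in the KO IP runs, 9.87 and 495 in the WT IP runs, 14.99 and 3.503 in the KO input runs and 5.20, 6.30 and 205 in the WT input runs. Rpl4, which lines the exit tunnel, had 1506 and 1324 CPM in the KO IP runs, 118 and 947 in the WT IP runs, 60.0 and 87.6 in the KO input runs and 83.3, 81.9 and 1470.2 in the WT input runs. Unlike Rpl3, it was lower in WT IP D1 batch 3 than in the other 3 runs with little Lars2. Rpl5 and Rpl11 bind 5S ribosomal RNA, and both also bind MDM2 when ribosome assembly fails. Rpl5 had 281 and 189 CPM in the KO IP runs, 69.1 and 331 in the WT IP runs, 69.98 and 52.5 in the KO input runs and 57.3, 50.4 and 209.5 in the WT input runs. Rpl11 had 255 and 179.8 CPM in the KO IP runs, 19.7 and 348 in the WT IP runs, 35.0 and 14.01 in the KO input runs and 26.0, 28.4 and 221 in the WT input runs. Both followed the division of the runs, with Rpl5 the less spread of the pair. The very short protein Rpl41, whose row held many of the counts of the Lars2-rich runs, had 21514 and 6724 counts in the KO IP runs, 122 and 21615 in the WT IP runs, 106 and 79 in the KO input runs and 101, 104 and 11554 in the WT input runs.

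In the small subunit, Rpsa, the 40S protein also known as the laminin receptor, behaved much like Rplp1. It had 1879.6 and 654 CPM in the KO IP runs, 168 and 8226 in the WT IP runs, 149.9 and 98.1 in the KO input runs and 203, 85.1 and 713 in the WT input runs. WT IP D1 batch 3 again stood apart. Rps9, the small subunit member with the most counts, had 4011 and 1817 CPM in the KO IP runs, 355 and 6646 in the WT IP runs, 245 and 234.7 in the KO input runs and 302, 239 and 2069 in the WT input runs. Rps6, the substrate of the S6 kinases, had 161 and 125 CPM in the KO IP runs, 24.7 and 241 in the WT IP runs, 5.00 and 14.01 in the KO input runs and 15.6, 12.6 and 143 in the WT input runs. Rps14, a protein of the platform whose loss is known from a human anaemia, had 806 and 516 CPM in the KO IP runs, 19.7 and 1312 in the WT IP runs, 14.99 and 3.503 in the KO input runs and 57.3, 28.4 and 366 in the WT input runs. Its 2 KO input runs rested on 3 and 1 counts. Rps19, the gene most often mutated in Diamond-Blackfan anaemia in humans, differed from all of these. It had 69.6 and 43.0 CPM in the KO IP runs, 64.2 and 78.4 in the WT IP runs, 80.0 and 70.1 in the KO input runs and 52.0, 37.8 and 42.6 in the WT input runs, and its runs overlapped fully between both sets.

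Rps19 had the smallest SD over the 9 runs (0.40 on the log2 scale), followed by Rps15a (0.42), Rpl7l1 (0.51), Rpl9 (0.61) and Rpl21 (0.75). Rps15a had 748 and 396 CPM in the KO IP runs, 607 and 919 in the WT IP runs, 555 and 406 in the KO input runs and 526, 428 and 445 in the WT input runs. With 101 to 136 counts in each of the Lars2-rich runs, it had more counts over those runs than any other member. Rpl9, a large subunit protein, had 196 and 171 CPM in the KO IP runs, 83.9 and 224 in the WT IP runs, 90.0 and 144 in the KO input runs and 62.5, 145 and 159.6 in the WT input runs, and Rpl21 had 61.7 and 43.4 CPM in the KO IP runs, 39.5 and 85.2 in the WT IP runs, 20.0 and 31.5 in the KO input runs and 15.6, 28.4 and 50.4 in the WT input runs. These 2 genes were still higher in all 4 runs with little Lars2. The largest SD belonged to Rpl18 (3.35), Rps4x (3.19), Rps13 (3.14), Rps27l (3.03) and Rpl24 (3.00). Rpl18 had 1308 and 536 counts in the KO IP runs, 0 and 2305 in the WT IP runs, 1 and 1 in the KO input runs and 2, 2 and 866 in the WT input runs. Rps4x, an X-linked small subunit gene, had 1198 and 572 counts in the KO IP runs, 4 and 2759 in the WT IP runs, 0 and 2 in the KO input runs and 1, 7 and 967 in the WT input runs. Both genes had single-digit counts in every Lars2-rich run. The small subunit gene Rps13 had 605 and 133 counts in the KO IP runs, 1 and 1665 in the WT IP runs, 1 and 2 in the KO input runs and 0, 0 and 329 in the WT input runs. Rpl24, of the large subunit, had 515 and 167 counts in the KO IP runs, 0 and 968 in the WT IP runs, 1 and 1 in the KO input runs and 1, 0 and 244 in the WT input runs. All 4 had at most 7 counts in any Lars2-rich run, so the size of their SD depends on the pseudocount of 1 CPM.

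The row of Rpl10a, a protein of the L1 stalk, ran against most other members. It had 196 and 131 counts in the KO IP runs, 27 and 64 in the WT IP runs, 48 and 38 in the KO input runs and 41, 34 and 201 in the WT input runs, which is 51.1 and 53.2 CPM in the KO IP runs, 133 and 16.0 in the WT IP runs, 239.9 and 133 in the KO input runs and 213, 107 and 49.2 in the WT input runs. Its 5 Lars2-rich runs lay between 107 and 240 CPM and all stood above the other 4 runs, the lowest of which was WT IP D1 batch 3. The row of Rpl10a starts at position 28329064 of chromosome 17, within chr17:28328471-28331033 on the plus strand (GRCm38), 1970 bases before the end of the gene. It was the longest such distance among the 37 members that have at least 100 counts and are known to lie on the plus strand. The strand was known for 62 of the 81 members. The Rpl10a row starts nearer to the beginning of the gene than to its end. Whether it counts the main 3′ UTR of this gene was not checked, so all values given for Rpl10a are those of this row.

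Across those 37 genes the distance from the UTR start to the gene end, which bounds the counted UTR from above, moved with the difference between runs. For WT input RIP8, batch 2 minus batch 1, Spearman's rho across genes was −0.56, with a median difference of 2.41 (log2(CPM + 1), −1.11 to 3.22) in 10 genes with over 500 bases and of 3.78 (2.26 to 5.92) in 27 genes with 500 or fewer. For WT IP D1, batch 3 minus batch 2, rho was −0.48, with medians of 2.76 (−2.98 to 5.61) and 4.74 (2.202 to 9.18). Genes are not independent replicates, and low counts in the shallower run make these differences imprecise. Rps19, at 622 bases, had differences of 0.17 and 0.29. Whether the length of the counted UTR has a part in the division of the runs was not tested beyond this description.

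**Figure D3:**
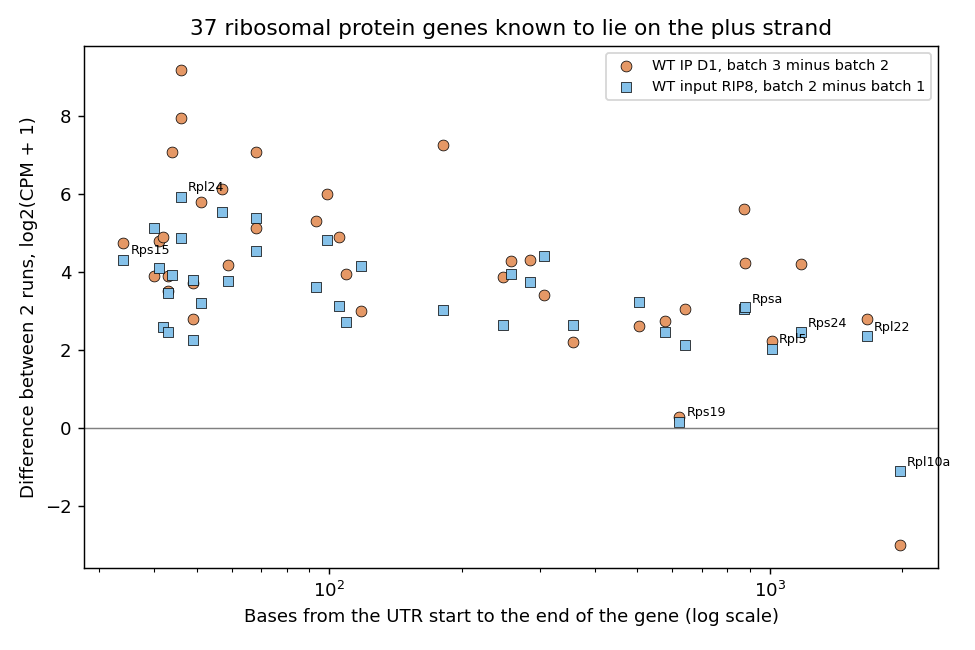
Each of the 37 genes known to lie on the plus strand, with at least 100 counts, appears at the distance from its UTR start to the gene end in bases (log scale), with the difference in log2(CPM + 1) between both runs of WT IP D1 (circles) and of WT input RIP8 (squares). Genes with over 500 bases have median differences of 2.76 and 2.41, against 4.74 and 3.78 for shorter ones, and Rpl10a lies below 0 in both.

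Copies and relatives of ribosomal protein genes with their own rows were read next. Rpl3l, the copy of Rpl3 used in heart and skeletal muscle, had 3 counts over all runs, 1 each in WT IP D1 batch 2, KO input RIP8 and WT input RIP8 batch 2. Rpl10l, a copy of Rpl10 expressed in testis, had 0 counts in all 9 runs, which allows up to 3 counts in any of them (0.734 to 15.6 CPM). Both copies were thus at or below the level of a few reads. Rpl39l had 4 and 0 counts in the KO IP runs, 0 and 10 in the WT IP runs, 0 and 0 in the KO input runs and 0, 0 and 6 in the WT input runs, and Rpl39 9883 and 3271 counts in the KO IP runs, 14 and 20741 in the WT IP runs, 13 and 16 in the KO input runs and 10, 24 and 6105 in the WT input runs. Counts of Rpl39l were seen in 3 runs, all poor in Lars2. Rpl22l1 had 734 and 190 counts in the KO IP runs, 1 and 929 in the WT IP runs, 0 and 1 in the KO input runs and 2, 2 and 362 in the WT input runs, and Rpl22 2439 and 1199 counts in the KO IP runs, 23 and 3155 in the WT IP runs, 16 and 26 in the KO input runs and 14, 32 and 2126 in the WT input runs. The pair differed in the Lars2-rich runs, where Rpl22 had 14 to 32 counts and Rpl22l1 0 to 2. Rps27l, a p53-inducible relative of Rps27, had 534 and 268 counts in the KO IP runs, 0 and 600 in the WT IP runs, 1 and 2 in the KO input runs and 0, 6 and 656 in the WT input runs. Rpl36al had 889 and 266 counts in the KO IP runs, 5 and 2331 in the WT IP runs, 3 and 0 in the KO input runs and 2, 2 and 501 in the WT input runs. Rpl7l1, a relative of Rpl7 that acts in assembly of the large subunit, had 90.4 and 85.2 CPM in the KO IP runs, 133 and 76.9 in the WT IP runs, 135 and 56.0 in the KO input runs and 83.3, 44.1 and 82.7 in the WT input runs, a range that overlapped between both sets of runs. Ribosomal proteins have many processed pseudogenes. How reads that match in more than 1 place were counted is not given in the sources used here, so counts of single members can include or lack reads of such copies.

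Large and small subunit genes showed the same division of the runs. Large subunit UTRs held 66.0 and 67.5% in the KO IP runs, 59.6 and 63.2 in the WT IP runs, 63.8 and 61.6 in the KO input runs and 61.1, 63.3 and 67.2 in the WT input runs of the ribosomal protein counts. The intervals of the 5 Lars2-rich runs were wide, from 56.5 to 62.6% in WT IP D1 batch 2 to 60.5 to 66.9% in KO input D1. Among the 4 deep runs, WT IP D1 batch 3 had the lowest interval, 63.0 to 63.3%, against 66.9 to 67.5% in WT input RIP8 batch 2. Medians over members gave another picture. The median log2(CPM + 1) of large minus small subunit genes was −0.28 and −0.10 in the KO IP runs, 0.67 and −0.12 in the WT IP runs, 1.06 and 0.86 in the KO input runs and 0.44, 0.96 and −0.13 in the WT input runs. It was thus above 0 in all 5 Lars2-rich runs and below 0 in the 4 others, while the share of summed counts, led by Rplp1, Rpl41 and Rps9, did not divide the runs in this way. These are differences between runs of the same rows, since counts are not divided by UTR length. In the 5 Lars2-rich runs a median member had 5 to 8 counts, and the small subunit medians were 3.91 to 4.45. The sign of the difference between medians in those runs therefore rests on a few reads per gene.

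**Figure D4:**
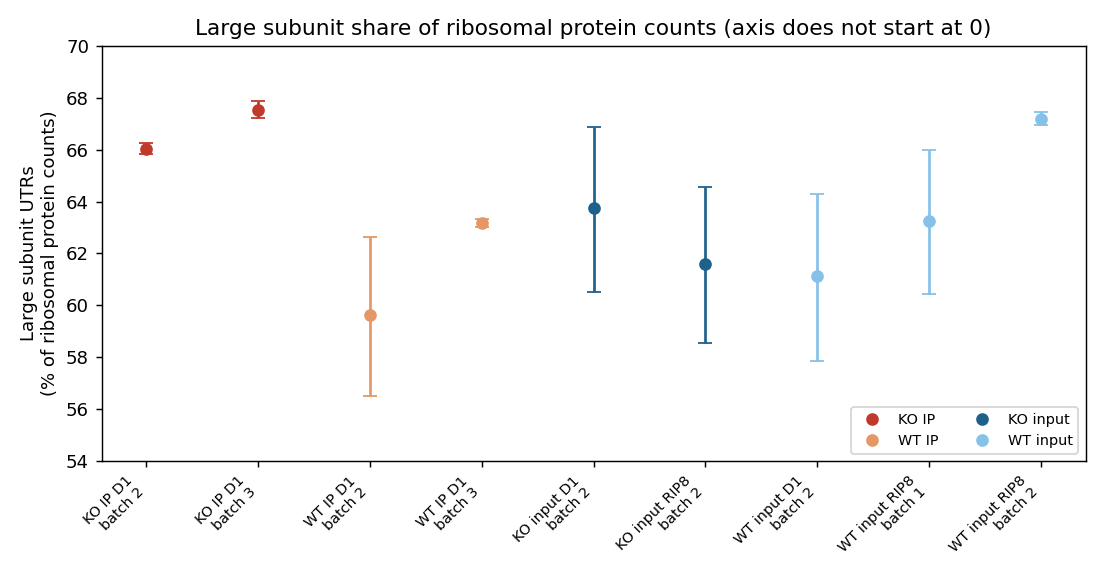
Points give the percent of ribosomal protein counts in large subunit UTRs in each run, with 95% Wilson intervals, coloured by group label. It lies at 66.0 to 67.5% in both KO IP runs and WT input RIP8 batch 2, at 63.2% in WT IP D1 batch 3 and at 59.6 to 63.8% in the other runs.

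KO IP and WT IP, which were prepared alike, were first set side by side within each sequencing batch, where each group is 1 run. In batch 2 the ribosomal protein UTRs were higher in KO IP: 73 of 78 members were at least 2-fold higher, against 21.4% of 9827 rows, and the median ratio was 10.4 beside 0.876 over all rows. Counts under 3 were set to 3 for this, which concerned 22 members. edgeR on the 6 libraries of batch 2, where the inputs give the spread, called 0 of 78 members and 0.0% of 7234 rows, and 41 members, all higher, had an unadjusted p under 0.05, against 8.02% of rows. Only these 2 runs belong to batch 3, which allows no test there. In batch 3 the direction was the opposite: 38 of 78 members were at least 2-fold lower in KO IP, against 14.2% of 10196 rows, with a median ratio of 0.502 beside 1.32 over all rows. Both subunits followed, with median ratios of 9.93 (large, 49 members) and 10.6 (small, 29) in batch 2 and of 0.510 and 0.408 in batch 3. The Lars2 row held 2.23% of KO IP and 48.6% of WT IP counts in batch 2, and 5.40% of KO IP and 1.16% of WT IP counts in batch 3. The part of this difference in the ratios was not tested.

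Single members departed from these medians. The ratio of KO IP over WT IP in batch 3 was 0.0795 (0.0756 to 0.0836) for Rpsa, with a 95% counting interval in parentheses, and 0.114 (0.110 to 0.118) for Rplp1. In batch 2 the same genes stood at 11.2 (7.998 to 15.7) and 19.9 (14.02 to 28.4). Rps14 reached 40.8 (15.3 to 109) in batch 2, where WT IP had 4 counts, and 0.393 (0.370 to 0.418) in batch 3. Rpl10a was turned round in both, with 0.383 (0.256 to 0.573) in batch 2 and 3.31 (2.46 to 4.47) in batch 3. Rpl4 had 1.40 (1.33 to 1.46) and Rps25, a protein of the 40S head, 1.79 (1.37 to 2.33) in batch 3. They were among the 9 members above 1 there.

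The 3 deep IP runs were then set against WT input RIP8 batch 2, the only deep input run, so that little of the Lars2 difference remained. KO IP D1 batch 2 had a median ratio of 1.36 over the 78 members (0.782 to 2.64), with 69 above 1. Its median ratio over 10599 rows was 0.941, and 4768 of these rows lay above 1. KO IP D1 batch 3 had a median ratio of 0.918 over the members (0.670 to 1.41), with 17 above 1, and differed least. Over 10318 rows the median ratio was 0.980, with 45.2% above 1. WT IP D1 batch 3 had 1.88, with 65 members above 1, beside 0.729 over 10499 rows, of which 35.6% lay above 1. Its members had the widest spread, from 0.326 (0.246 to 0.432) for Rpl10a to 11.5 (11.1 to 12.0) for Rpsa. Rplp1 followed with 7.92 (7.70 to 8.15), Rps13 with 5.18 (4.60 to 5.83) and Rpl35a, a large subunit protein, with 5.03 (4.25 to 5.94), whereas Rpl4 had 0.644 (0.619 to 0.671) and Rps25 0.594 (0.467 to 0.755). In KO IP D1 batch 2 the highest ratios were likewise those of Rpsa, 2.64 (2.52 to 2.75), and Rplp1, 2.28 (2.21 to 2.35). The same input run stands under all 3 ratios, so they are not independent.

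**Figure D5:**
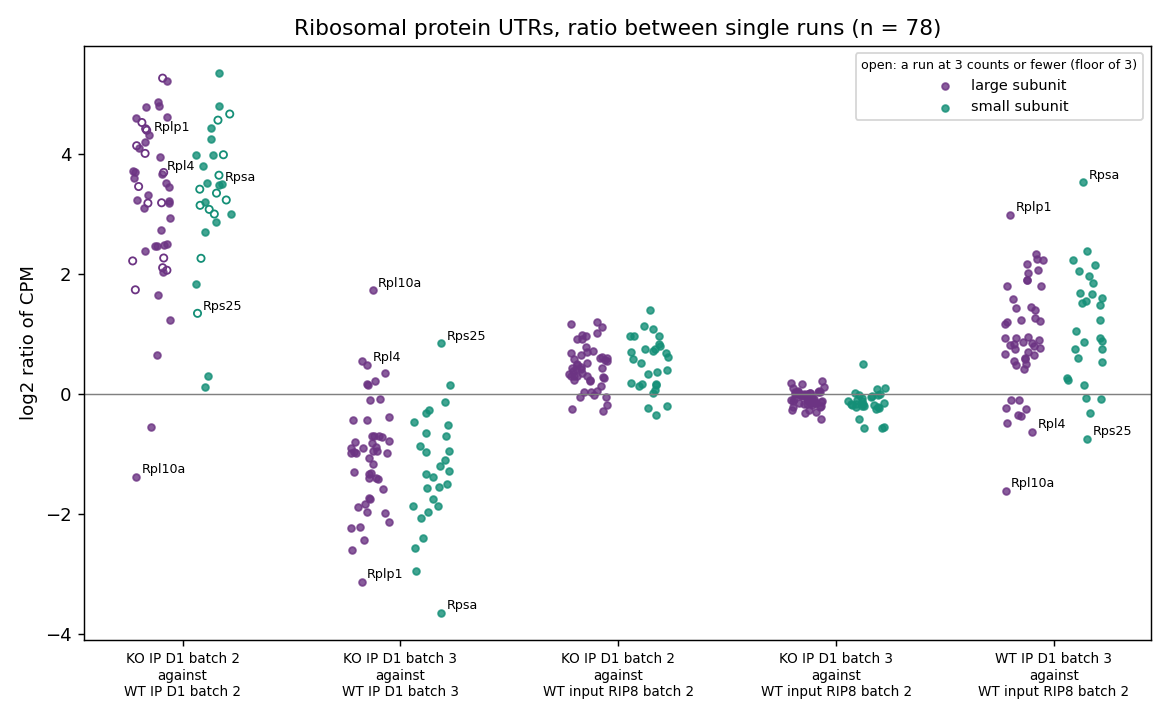
Each point is the log2 ratio of CPM of 1 ribosomal protein UTR between 2 runs, large subunit left and small subunit right in each column, with open circles where a run had 3 counts or fewer. Most members lie above 0 for KO IP against WT IP in batch 2 (median ratio 10.4) and below 0 in batch 3 (0.502). Rpsa and Rplp1 lie at the edge in batch 3 and in WT IP against the input run, and Rpl10a at the opposite edge in both of these and at the lower edge in batch 2.

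The tests summed the runs of each library, which left 1 library each for KO IP and WT IP and 2 each for KO input and WT input, and 2 residual degrees of freedom that come from the inputs alone. edgeR's quasi-likelihood F test with Benjamini-Hochberg adjustment at 0.05 called 0 of 78 ribosomal protein rows in each of the 5 comparisons, and 0 of 11496 rows in all (0.0%). The 5 comparisons share libraries, so their values stand side by side and are not independent. The SE given with a log2 fold change below is derived from the F statistic and restates the test.

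The change of IP over input in KO against that in WT asks, by label, whose recovery depends on CPEB4. Of 78 members 71 lay above 0 with a median of 1.65, beside 0.27 over all rows, and 1 had an unadjusted p under 0.05, against 1.08% of all rows. DESeq2 also called 0 members. Among the members with the smallest p were, above 0, Rps14 (3.55 ± 1.71) and Rpl22l1 (3.86 ± 1.89), and below 0 Rps19 (−1.33 ± 1.10), Rps15a (−0.81 ± 1.21) and Rpsa (−0.84 ± 1.57), each with an adjusted p of 1.00. The value rests on 1 input library. Without WT input RIP8 the median turned to −1.07 with 0 called, and without WT input D1 it was 2.42 and 36 members were called higher (10.2% of all rows), at 1 residual degree of freedom.

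KO IP against WT IP compares knockout background with wild-type signal in RNA prepared alike. Here 73 of 78 members lay below 0, with a median of −0.96 beside 0.01 over all rows, and 1, Rpl35a, had an unadjusted p under 0.05 (0.287% of all rows). By edgeR Rpl35a (−2.23 ± 0.97), Rpsa (−2.81 ± 1.36) and Rplp1 (−2.44 ± 1.54) had the smallest p below 0, and Rpl10a (0.93 ± 1.01), Rps25 (0.38 ± 1.35) and Rpl29 (0.32 ± 1.23) above 0, all with an adjusted p of 1.00. The sum of both batches follows the deeper WT IP run, and in the batch 2 runs alone the median was 3.96. Without WT input RIP8, with fewer rows tested, 3 members (Rpsa, Rplp1 and Rpl35a) were called lower, against 0.287% of 7658 rows called in either direction, and without WT input D1 1 member (Rpsa) was called lower (0.138% of rows). DESeq2 called 0 members.

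WT IP against WT input gave 77 of 78 members above 0, with a median of 2.13 beside −0.10 over all rows, and 36 with an unadjusted p under 0.05, all above 0, against 7.64% of all rows. DESeq2 called 1 member, Rpsa, and the share of all rows that it called is not given here. Rpsa (4.62 ± 1.11), Rpl35a (3.20 ± 0.80) and Rplp1 (4.28 ± 1.26) had the smallest p (adjusted p = 0.579 for each by edgeR), and Rpl10a (−1.96 ± 0.97, adjusted p = 0.637) was the only member below 0. Rpsa had 32861 counts in the WT IP library, against 39 in WT input D1 and 2941 in WT input RIP8. Both WT inputs moved the count of calls. Without WT input RIP8, 73 members were called higher and Rpl10a lower, while 34.5% of all rows were called, and without WT input D1 28 were called higher (9.14% of rows). In the batch 2 runs alone the median was −2.64, so the direction is that of the batch 3 run of WT IP.

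KO IP against KO input had the same kind of difference, with 76 of 78 members above 0 and a median of 4.08 beside 0.20 over all rows. An unadjusted p under 0.05 was reached by 69 members, all above 0, against 15.0% of all rows. With all runs this median was larger than that of WT IP against WT input. Without WT input RIP8 it was the smaller, at 3.99 beside 4.97. Rps14 (6.60 ± 1.27), Rpl22l1 (6.39 ± 1.39) and Rpl18 (6.39 ± 1.43) had the smallest p, each with an adjusted p of 0.259 by edgeR. Rpl10a (−1.55 ± 0.94) and Rps19 (−0.07 ± 0.78) lay below 0. Rps14 had 4366 counts in KO IP, against 3 and 1 in the KO inputs. DESeq2 called 23 members, all higher, and the share of all rows that it called is not given here. Without WT input RIP8, 71 members were called higher and Rpl10a lower (35.2% of all rows), and without WT input D1 72 were called higher and Rpl10a lower (25.7% of rows). All KO IP runs were poor in Lars2 and both KO input runs rich in it, so within these libraries the Lars2 share and the precipitation cannot be told apart.

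KO input against WT input, the level of the mRNAs by genotype label, had 75 of 78 members below 0, with a median of −2.81 beside −0.10 over all rows, and 54 with an unadjusted p under 0.05, all below 0, against 5.22% of all rows. Rps14 (−4.72 ± 1.16) and Rpl18 (−4.88 ± 1.35) were among the members with the smallest p, each with an adjusted p of 0.953 by edgeR, and Rps19 (0.62 ± 0.67), Rpl10a (0.53 ± 0.74) and Rpl7l1 (0.12 ± 0.68) lay above 0. DESeq2 called 0 members. The difference rests on WT input RIP8, the only input library with a deep run. Without it the median was −0.14 and 0 members were called, and without WT input D1, with 79 members tested, 70 were called lower and 1, Rpl10a, higher (20.2% of rows). With the other run of each library, which for WT input RIP8 is the shallow batch 1 run, the median was −0.10. Between KO input D1 and WT input D1, both rich in Lars2, the chi-square per degree of freedom over 26 members was 1.04.

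Large and small subunit members stood close to each other in all 5 comparisons, and 0 of 49 and 0 of 29 were called by edgeR. Median log2 fold changes of large and of small subunit members were 1.61 and 1.68 for KO IP over input against WT IP over input, −0.92 and −0.98 for KO IP against WT IP, and 2.11 and 2.19 for WT IP against WT input. They were 3.88 and 4.40 for KO IP against KO input and −2.71 and −3.06 for KO input against WT input. At an unadjusted p under 0.05 stood 22 large and 14 small subunit members for WT IP against WT input, 43 and 26 for KO IP against KO input, and 33 and 21 for KO input against WT input. The small subunit median was thus the further from 0 of the pair in each comparison. Whether the subunits differ was not tested.

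Other genes of the translation apparatus were read from the same fit. Other TOP mRNAs, such as elongation factors and Tpt1, had rows for 19 of 24 genes listed, and 0 were called in any comparison. Their medians were 2.03 for KO IP over input against WT IP over input, −1.13 for KO IP against WT IP, 2.22 for WT IP against WT input, 4.37 for KO IP against KO input and −2.94 for KO input against WT input, near those of the ribosomal proteins. At an unadjusted p under 0.05 stood 1, 0, 10, 16 and 15 of them. Ribosome biogenesis factors (23 of 24 with a row) had 0 called and medians of 0.98, −0.38, 0.97, 1.84 and −1.36 in the same order, with 0, 0, 3, 7 and 2 at an unadjusted p under 0.05. Mitochondrial ribosomal proteins (72 tested) had 0 called and medians of 0.52, −0.60, 1.13, 2.00 and −1.14, with 0, 0, 14, 20 and 11. Both of these lists lay nearer 0 than the TOP list in each comparison. Summed over the list, other TOP mRNAs had 22646 and 14136 CPM in the KO IP runs, 1964 and 37972 in the WT IP runs, 1549.5 and 1534 in the KO input runs and 1801, 2495 and 13871 in the WT input runs. Biogenesis factors had 3830.0 and 3250.2 CPM in the KO IP runs, 1347 and 4837 in the WT IP runs, 1534 and 1363 in the KO input runs and 1312, 1298 and 3352 in the WT input runs, and mitochondrial ribosomal proteins 4001 and 3531 CPM in the KO IP runs, 1964 and 5101 in the WT IP runs, 2119 and 2242 in the KO input runs and 2103, 1919 and 3622 in the WT input runs. The lowest and the highest run thus lay further apart in the TOP list than in the other 2 lists. Whether the lists differ was not tested.

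Rows outside the family whose log2(CPM + 1) over the 9 runs was most like the mean of the members were an unnamed row (Pearson's r = 0.9992), Hspb11 (0.9981), Klk8 (0.9977), Ccdc107 (0.9972) and Aga (0.9972), out of 9436 rows with at least 100 counts. All 5 had 0 counts in the 5 Lars2-rich runs and at most 192 in any other run, so the likeness reflects the presence or absence of counts. The next row was Eef1a1, the elongation factor that delivers aminoacyl-tRNA and itself a TOP mRNA (r = 0.9971). It had 6132 and 3735 CPM in the KO IP runs, 375 and 11763 in the WT IP runs, 245 and 287 in the KO input runs and 297, 293 and 3827 in the WT input runs. The runs fall into 2 clusters, so these correlations, over 9 runs, describe that division only.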

How the data were processed

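RNA of CPEB4 immunoprecipitates and inputs was sequenced, and the deposited table gives raw read counts per 3′ UTR, made with featureCounts per the submitters' processing notes. Those notes also name Bowtie 1.2.3, Bowtie2 2.2.2, R 3.5.1 and mm10, without their order. Rows are named by transcript and UTR start. Only the first 9 of 20 count columns were analysed, because the other 11 carry values that do not follow the row names: of neighbouring rows with a shared start, 25 of 49 were identical in the first 9 columns and 0 of 60 in the others. All 20 columns have a sample. Symbols were given through RefSeq genes on GRCm38 by UTR start and by the order of the table: 3828 UTR starts equalled a gene start, against 6 after a shift of 1000000 bases, and 17721 of 20586 rows received a symbol. Of the 81 members, 15 start at a gene start, 60 lie inside the gene and 6 were named in a second pass within 50 bases.

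Runs of a library were summed to 6 libraries, and the Lars2 row was left out. edgeR 4.0.16 in R 4.3.3 (TMM, filterByExpr with a minimum count of 10, quasi-likelihood F test, common dispersion 0.281) was fitted on all rows, with p-values adjusted over all 11496 rows tested. Of the members, 78 passed the filter; Rpl3l, Rpl10l and Rpl39l did not. IP groups with 1 library are assumed to vary like the inputs. The fit was tested on simulated data. Alternatives were DESeq2 1.42.0, no TMM, no filter, the Lars2 row kept, batch 2 runs alone, the other run of each library, a replicate block and leaving out each input library. Shares carry 95% Wilson intervals, and levels are log2(CPM + 1).

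Members and lists were chosen with earlier results of these data known. The text names, per comparison, the 3 members with the smallest p on each side (1 of these members is not reported here), across runs the 5 members with the largest and the smallest SD, the stalk genes, Rpsa, Rps6, Rpl3, Rpl4, Rps14, Rps19, Rpl5, Rpl11 and paralogs, and the 5 rows most like the members. Rpl10a, Rpl39, Rpl41, Rps9, Rpl22, Eef1a1 and the members of the sequence lines were named beyond that, after their values were seen.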

Additional observations from a re-analysis of the deposited data

How the results depend on the processing

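The number of ribosomal protein rows called by edgeR (0 of 78 in each comparison) differed with the libraries and rows used. Leaving out 1 input library gave 0 to 36 calls for KO IP over input against WT IP over input, 0 to 3 for KO IP against WT IP, 0 to 74 for WT IP against WT input, 0 to 73 for KO IP against KO input and 0 to 71 for KO input against WT input, and leaving out either KO input gave 0 in all 5. With no filter on low counts, which tested 80 members, 11 were called for WT IP against WT input, 61 for KO IP against KO input and 19 for KO input against WT input. DESeq2 called 1 and 23 for WT IP and KO IP against their inputs. With the other run of each library, 25 were called lower in KO IP than in WT IP, beside 350 of 7933 rows called lower. In that fit 77 were called for WT IP against WT input, beside 2113 rows called higher and 1661 lower. For KO IP against KO input 70 were called, beside 1081 rows called higher and 689 lower. With no TMM factors, with the Lars2 row kept or with batch 2 runs alone, 0 members were called in each comparison. The share of all rows called is not given here for DESeq2 or for the fit without the filter, so those counts cannot be set against the whole table. Why the calls appear was not tested.

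The names D1 and RIP8 recur in both genotypes, but the labels do not say that they mark shared mice or days, and the D1 minus RIP8 differences of KO and WT input correlated only weakly over 9514 rows (r = 0.22). A replicate block on these names gave 53 calls for WT IP against WT input and 71 for KO IP against KO input and changed no other count of calls. The share of all rows called with this block is not given here. With the replicate block, Rpl7l1 in KO input against WT input stood at −0.0037.

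Directions turned with the runs used. The median log2 fold change of the members for KO IP over input against WT IP over input was −1.57 when the alternative run stood for each library, and −1.07 to 2.42 without 1 input library. In the batch 2 runs alone it was 6.95 for the same comparison (1.65 with all runs), 3.96 for KO IP against WT IP and −2.64 for WT IP against WT input. For WT IP against WT input it was 4.09 with the replicate block and 5.15 with each library’s other run, beside 2.13. Among named members in the batch 2 runs alone, KO IP over input against WT IP over input was 0.63 for Rps15a and 5.75 for Rpsa. KO IP against WT IP was −1.12 for Rpl10a, 3.92 for Rpl35a, 3.74 for Rpsa and 4.58 for Rplp1. WT IP against WT input was −1.57 for Rpsa, −2.69 for Rpl35a, −2.42 for Rplp1 and 0.054 for Rpl10a. Rpl22l1 had −0.24 for KO IP over input against WT IP over input with the other run of each library. Rps19 in KO IP against KO input, near 0 throughout, had 0.039 with no filter, 0.070 with the Lars2 row kept and 0.14 in the batch 2 runs alone. Without 1 input library, KO input against WT input ran from −0.19 to 1.59 for Rpl10a and from −0.56 to 0.59 for Rpl7l1.

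The division of the runs by ribosomal protein share did not depend on how the share was formed. With the Lars2 row in the total it was 4.83 and 2.78% in the KO IP runs, 0.247 and 8.84 in the WT IP runs, 0.217 and 0.222 in the KO input runs and 0.241, 0.239 and 3.09 in the WT input runs. Without Rplp1, the member with the most counts, it was 4.64 and 2.82% in the KO IP runs, 0.465 and 7.89 in the WT IP runs, 0.421 and 0.343 in the KO input runs and 0.441, 0.356 and 3.03 in the WT input runs. Over members named in the first pass alone it was 4.34 and 2.61% in the KO IP runs, 0.447 and 7.76 in the WT IP runs, 0.404 and 0.333 in the KO input runs and 0.415, 0.335 and 2.81 in the WT input runs. Large subunit UTRs without Rplp1 and Rps9 held 69.8 and 70.7% in the KO IP runs, 63.1 and 63.6 in the WT IP runs, 66.5 and 65.1 in the KO input runs and 64.2, 66.7 and 70.6 in the WT input runs of ribosomal protein counts. In the 5 shallow runs most members had fewer than 10 counts, so single members there are bounded more than measured.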
